A study of Mus musculus with 8 samples.

Results

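Fusion of myoblasts into multinucleated myotubes was examined through 10 genes of the fusion machinery in muscle stem cells (MuSCs) of aged mice. These genes were the fusogens Mymk and Mymx, the cadherins Cdh2, Cdh11 and Cdh15, the promyogenic receptors Cdon and Boc, and the adhesion molecules Jam3, Ncam1 and Vcam1. They were 10 of the 55487 rows of the count table, were matched by Ensembl identifier, and all 10 passed the filter on low counts that left 12060 genes for testing. The genes were chosen with their values in NAM/PN against vehicle already known, so their levels and differences in that comparison are given as a description and carry no test.

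MuSCs were sorted by FACS from hindlimb muscles of wild-type male C57BL/6JRj mice whose age is labelled Old, as lineage-negative cells positive for CD34 and ITGA7. They were cultured for 72 h, or 3 days, in growth medium with 1% DMSO (vehicle) or with NAM/PN. NAM/PN is the combination of nicotinamide (NAM, a form of vitamin B3) and pyridoxine (PN, a form of vitamin B6), at a labelled concentration of 1 mM. No genotype or other agent was labelled, nor whether the NAM/PN cultures also held DMSO. The study used 8 mice as 4 pools of 2 mice, and each pool gave 1 library per condition. The cells grew outside their niche and without a step that induces fusion, and the values are averages over pooled animals and over all cells of a culture.

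Myoblasts that leave the cell cycle align, adhere through cadherins and immunoglobulin-type receptors, and then merge their membranes. Myomaker, encoded by Mymk, is a multipass membrane protein needed for the mixing of the outer membrane leaflets, and myomerger, the small protein encoded by Mymx, drives the opening of the fusion pore. M-cadherin (Cdh15) and N-cadherin (Cdh2) hold MuSCs to the myofiber and to each other, and CDON and BOC bind these cadherins from the side within the same cell and pass contact signals on to the myogenic program.

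Library totals ranged from 6472484 to 10163101 counts, and 3 counts, taken as the floor of detection, equalled 0.280 to 0.457 CPM across libraries, where CPM are the counts of a gene scaled to the normalized total of its library. Between 12483 and 14472 genes were detected per library, and the NAM/PN library of pool 4 had the most counts and the fewest genes. All 7 MuSC and myoblast markers were detected, with summed levels of 2738 to 3232 CPM in vehicle and 2219 to 2763 CPM with NAM/PN. Of 8 immune markers, 7 were at 0 in every library, as were Emcn, Flt1, Cldn5 and Tie1 of 9 endothelial markers. The summed levels of both lists reached at most 29.5 CPM in a library, led by Cd68 and Egfl7, respectively.

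The 250 bases before the RefSeq start of Cdh15 are shown because M-cadherin is the cadherin most closely tied to the myogenic lineage, and because the MYOD family of transcription factors binds the letters CANNTG. The sequence was taken from RefSeq for GRCm38.p6, chr8:122848124-122848373 on the plus strand, and capitals mark each CANNTG. GENCODE starts the gene further upstream, so the window lies inside the gene as GENCODE annotates it.

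Cdh15: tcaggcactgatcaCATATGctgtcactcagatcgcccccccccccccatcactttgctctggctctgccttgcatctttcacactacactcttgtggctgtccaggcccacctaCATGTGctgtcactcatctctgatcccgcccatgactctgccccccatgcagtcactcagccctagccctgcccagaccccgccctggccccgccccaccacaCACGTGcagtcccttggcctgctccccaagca

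CANNTG with any base at N is its own reverse complement, so 1 strand was searched, and its matches in Cdh15 began 236, 135 and 32 bases before the start. Among 32851 promoter windows of 250 bases from 27025 genes, 66.2% held at least 1 CANNTG and 12.2% held at least 3, so such matches are common. The Cdh15 window held 0 of the form CAGCTG, which 13.0% of the windows held, and binding of MYOD was not tested. Of the 10 genes, Cdh2 was not looked up, and of the others only Cdh15 and Cdon were matched to this table. The Cdon window (chr9:35451826-35452075, plus strand) held 0 matches, which says only that these letters are not in that window. That window also lies inside the GENCODE gene, far from its start.

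The fusogens were far lower with NAM/PN in every pool. Mymk (chromosome 2, 27061636 to 27072179 on GRCm38, minus strand) measured 61.3, 95.3, 66.6 and 161 CPM in pools 1 to 4 with vehicle. With NAM/PN, the same pools measured 11.3, 10.3, 9.90 and 31.5 CPM. The groups did not overlap, and pool 4 was the highest in both. The mean was 96.2 ± 46.0 CPM in vehicle and 15.8 ± 10.5 CPM in NAM/PN libraries (SD, n = 4), a fitted log2 fold change of -2.60 with a standard error (SE) of 0.39, or 6.05-fold lower. Within pools, Mymk was lower by 2.35 to 3.18 on the log2 scale. Without the NAM/PN library of pool 4 its log2 fold change was -3.19. In cultures measured in bulk, fewer fusing cells and less fusogen RNA per cell cannot be told apart.

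Mymx (chromosome 17, 45600971 to 45602102, minus strand) measured 26.1, 35.7, 25.3 and 48.0 CPM with vehicle, against 3.45, 5.57, 8.53 and 6.91 CPM with NAM/PN. The highest NAM/PN library was below the lowest vehicle library, and pool 4 was again the highest of the vehicle libraries but not of the NAM/PN libraries. Its mean was 33.8 ± 10.6 CPM in vehicle and 6.11 ± 2.15 CPM in NAM/PN libraries (SD, n = 4), for a log2 fold change of -2.46 (SE 0.42). The difference was smallest in pool 3, at -1.54, and lay between -2.63 and -2.83 in the other pools.

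Myomaker and myomerger act together, and both transcripts were at a similar share of their vehicle level, 16.4% for Mymk and 18.1% for Mymx. The ratio of Mymk to Mymx counts was 2.75 ± 0.43 with vehicle, between 2.35 and 3.37, and 2.71 ± 1.51 with NAM/PN, between 1.16 and 4.55 (SD, n = 4). The mean ratio was thus nearly equal in both conditions, but the pools were spread more widely with NAM/PN, where Mymx rested on counts as low as 28 in a library. Counts of different genes are not scaled by gene length, so ratios and shares of counts between genes describe reads from the 3′ end and not amounts of protein or full transcripts.

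**Figure D1:**
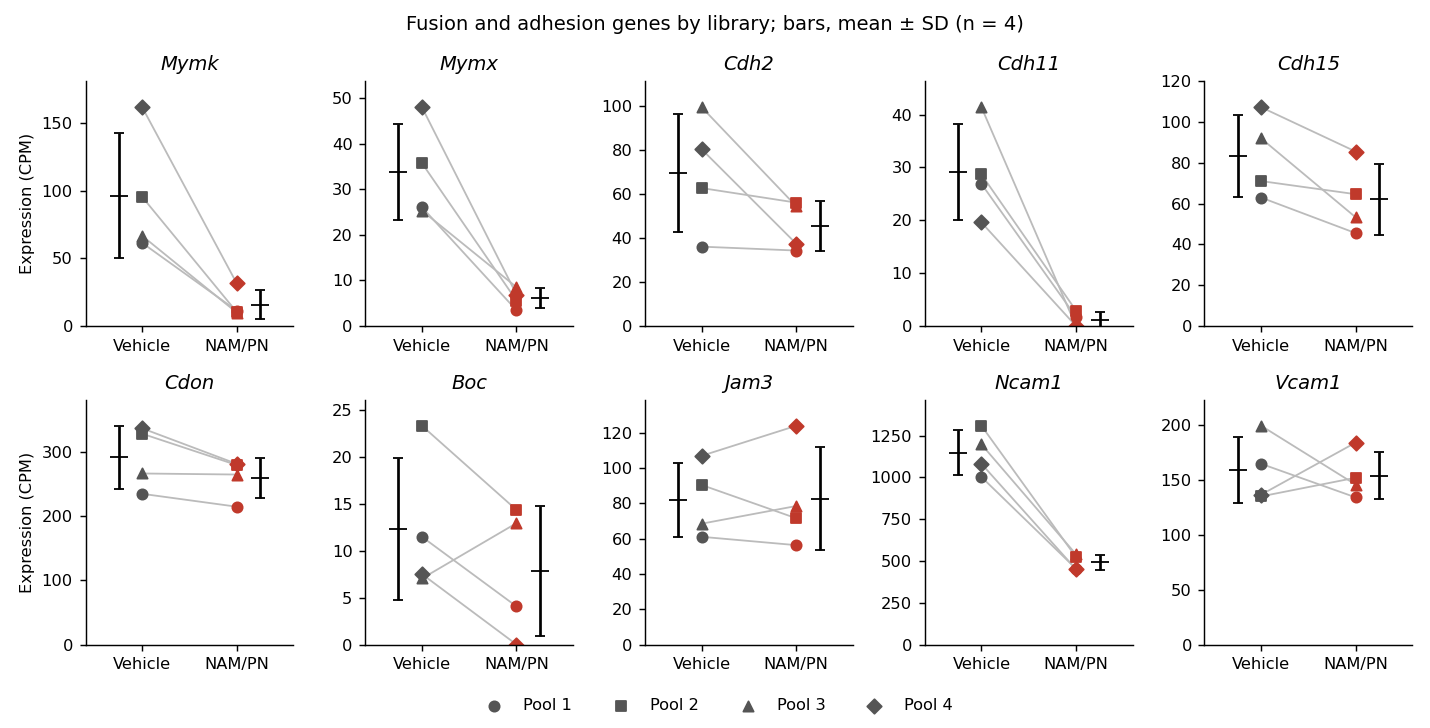
Expression in CPM (y axis, linear, from 0) of the 10 genes in vehicle (grey) and NAM/PN (red) libraries, with marker shapes for pools, lines joining the libraries of a pool, and bars for the mean ± SD (n = 4). The libraries of Mymk, Mymx, Cdh11 and Ncam1 do not overlap between conditions, whereas those of the other 6 genes do.

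The 3 cadherins differed from each other in size of difference. Cdh11, or OB-cadherin, is a cadherin of mesenchymal cells, and the gene lies on chromosome 8 (102632095 to 102785642, minus strand). It measured 26.9, 28.7, 41.4 and 19.6 CPM with vehicle, against 1.72, 2.93, 0 and 0 CPM with NAM/PN. These levels rested on 227, 231, 335 and 180 counts with vehicle, against 14 and 21 counts in pools 1 and 2 and 0 counts in pools 3 and 4 with NAM/PN. Cdh11 was therefore clearly detected in every vehicle library and was at 0 or at no more than 21 counts in the NAM/PN libraries.

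The NAM/PN mean of Cdh11, 1.16 ± 1.43 CPM, was 3.99% of the vehicle mean, 29.1 ± 9.06 CPM (SD, n = 4). Its log2 fold change of -4.65 (SE 0.87) was the furthest from 0 of the 10 genes. The differences within pools 3 and 4, whose NAM/PN libraries were at 0, depend on the prior count added to each library. Removal of 1 pool from both conditions gave values between -4.04 and -5.65.

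Fibro-adipogenic cells are a mesenchymal population of muscle, and its 10 markers did not move together. Their summed level was 267 to 341 CPM with vehicle, but 560, 1157, 97.0 and 84.1 CPM in the NAM/PN libraries of pools 1 to 4. Col1a1, a fibrillar collagen gene with the largest sum of that list, ranged from 1.74 to 41.3 CPM with vehicle and measured 486, 1032, 3.96 and 3.27 CPM with NAM/PN. That gene alone carried the high sums of pools 1 and 2. Col3a1, another fibrillar collagen gene, ranged from 149 to 166 CPM with vehicle and from 53.7 to 84.4 CPM with NAM/PN, and Gsn, which encodes the actin-severing protein gelsolin, from 114 to 167 CPM and from 5.42 to 34.4 CPM. Both were lower in every NAM/PN library than in any vehicle library, as Cdh11 was. Within NAM/PN, Cdh11 was detected in the libraries with high Col1a1 and was at 0 in those with low Col1a1, whereas vehicle libraries had high Cdh11 at low Col1a1. Pdgfra, Lum, Dpt and Mfap5 were at 0 in every library. The sort kept SCA1-negative cells, which leaves out SCA1-positive fibro-adipogenic cells, and the part of such cells in the Cdh11 values was not tested.

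Cdh2, which encodes N-cadherin, lies on chromosome 18 (16588877 to 16809246, minus strand). It measured 36.1, 62.8, 99.5 and 80.4 CPM with vehicle and 34.3, 56.2, 54.5 and 37.5 CPM with NAM/PN. The groups overlapped, since the vehicle library of pool 1 was as low as the NAM/PN libraries. Pools 3 and 4 were lower with NAM/PN by 0.87 and 1.10 on the log2 scale, while pools 1 and 2 differed by 0.07 and 0.16. The means were 69.7 ± 27.0 and 45.6 ± 11.3 CPM (SD, n = 4), a log2 fold change of -0.61 (SE 0.29).

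Cdh15, on chromosome 8 (122847966 to 122867397, plus strand), encodes M-cadherin and was detected at a similar range in both conditions. It measured 63.0, 71.1, 92.0 and 107 CPM with vehicle and 45.5, 64.7, 53.3 and 85.6 CPM with NAM/PN. Each pool was lower with NAM/PN, but the highest NAM/PN library exceeded the lowest vehicle libraries. The means were 83.3 ± 20.1 and 62.3 ± 17.4 CPM (SD, n = 4), a log2 fold change of -0.42 (SE 0.24). The annotated gene Gm20388 spans Cdh15 on the same strand and was at 0 in every library.

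The make-up of cadherin counts was also compared, using Cdh2, Cdh11, Cdh15 and 15 other type I and type II cadherin genes, 18 in all. Cdh11 held 7.50% to 13.9% of these counts in vehicle libraries. With NAM/PN, pools 1 to 4 gave 0.909%, 1.35%, 0% and 0%. The zeros were 0 of 1508 and 0 of 2279 counts, for which the exact Clopper-Pearson interval at 95% reaches 0.244% and 0.162%, counting error only. The interval leaves out the spread between libraries, which can be far wider. Boc, for example, had 33, 103 and 85 counts in the NAM/PN libraries of pools 1 to 3 and 0 in that of pool 4. A count of 0 therefore does not show that a transcript was absent. Cdh15 held 33.7 ± 5.20% with vehicle and 29.3 ± 7.83% with NAM/PN, and Cdh2 held 27.3 ± 5.88% and 21.3 ± 4.10% (SD, n = 4). Both overlapped between conditions.

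The remaining counts fell mostly on Cdh6, or K-cadherin, a type II cadherin that is not among the 10 genes. Its share was 24.8 ± 6.22% with vehicle and 42.4 ± 7.78% with NAM/PN (SD, n = 4), without overlap between conditions. Shares of a fixed total move against each other, so the share of Cdh6 also carries the difference in Cdh11 and Cdh2. In CPM, Cdh6 measured 60.5 ± 14.9 in vehicle and 89.4 ± 13.2 in NAM/PN libraries, for a log2 fold change of 0.56 (SE 0.22) that did not pass edgeR's quasi-likelihood test (adjusted p = 0.371, and 0.0885 to 0.743 in 17 alternative settings).

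**Figure D2:**
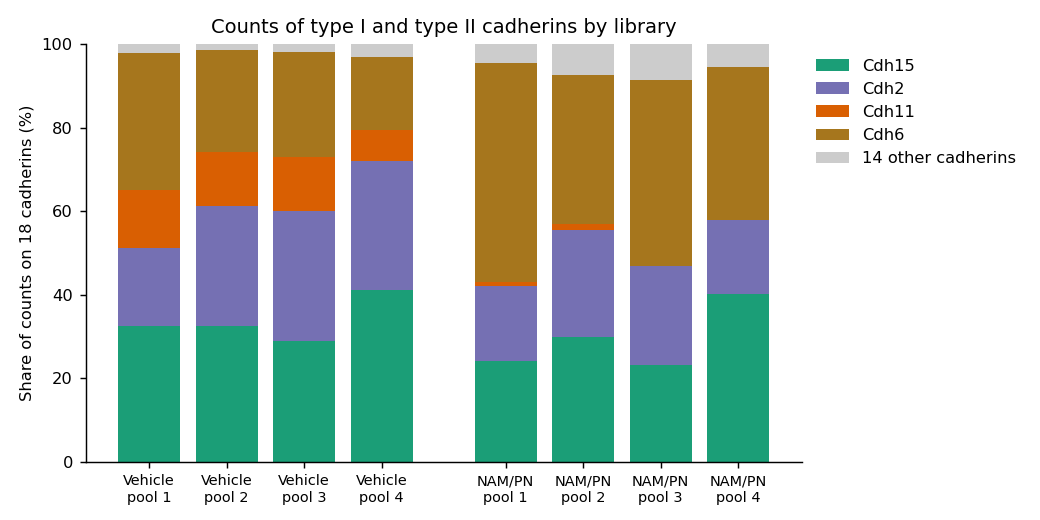
Share of counts on 18 type I and type II cadherin genes (y axis, %) in each of the 8 libraries, stacked by gene. Cdh11 takes 7.50% to 13.9% of the vehicle bars and at most 1.35% of the NAM/PN bars, and Cdh6 takes 17.4% to 32.6% of the vehicle bars and 35.8% to 52.5% of the NAM/PN bars.

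Of the promyogenic receptors, Cdon was close to its vehicle level. Cdon (chromosome 9, 35421128 to 35507652, plus strand) measured 235, 329, 267 and 337 CPM with vehicle and 215, 280, 265 and 282 CPM with NAM/PN. Every pool was lower with NAM/PN, although in pool 3 hardly so, and the groups overlapped. The means were 292 ± 49.3 and 261 ± 31.2 CPM (SD, n = 4), or 89.2% of the vehicle level, for a log2 fold change of -0.16 (SE 0.17). A small nuclear RNA gene annotated inside Cdon, Gm25630, had at most 65 counts in a library.

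Boc (chromosome 16, 44485049 to 44558897, minus strand), the homolog of Cdon, had the widest spread of the 10 genes between pools. It measured 11.5, 23.3, 7.04 and 7.51 CPM with vehicle and 4.06, 14.4, 12.9 and 0 CPM with NAM/PN. Pools 1, 2 and 4 were lower with NAM/PN and pool 3 was higher, and the groups overlapped. The value of 0 was in the NAM/PN library of pool 4, where few genes were detected. The log2 fold change was -0.66 with an SE of 0.91, -0.24 without that library and -1.43 when the pools were entered as a replicate block, so its size is not known from these libraries.

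Ncam1, on chromosome 9 (49502136 to 49798925, minus strand), encodes the neural cell adhesion molecule, which is carried by activated and fusing myogenic cells. It measured 1003, 1309, 1198 and 1082 CPM with vehicle and 454, 524, 540 and 451 CPM with NAM/PN. All vehicle libraries were above all NAM/PN libraries, with little spread within each. The means were 1148 ± 134 and 492 ± 46.4 CPM (SD, n = 4), a log2 fold change of -1.22 (SE 0.15), or 2.33-fold lower. The pools differed by -1.14, -1.32, -1.15 and -1.26, and the fold change stayed between -1.28 and -1.15 in 17 alternative settings, and of the 10 genes Ncam1 differed least between pools.

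Vcam1, on chromosome 3 (116109949 to 116129688, minus strand), encodes a ligand of integrin α4β1 and marks the surface of MuSCs. It measured 164, 135, 199 and 136 CPM with vehicle and 134, 152, 145 and 184 CPM with NAM/PN. Pools 1 and 3 were lower with NAM/PN and pools 2 and 4 were higher. The means were 159 ± 30.1 and 154 ± 21.4 CPM (SD, n = 4). The log2 fold change was -0.05 (SE 0.19), and its sign changed in 4 of the 17 alternative settings. Itga4, the α4 partner of VCAM1, had at most 10 counts in a library and was not tested.

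Jam3 (chromosome 9, 27097384 to 27155421, minus strand) encodes a junctional adhesion molecule that pairs with JAM2 on a neighbouring cell. It measured 61.0, 90.3, 68.4 and 107 CPM with vehicle and 56.3, 71.5, 78.4 and 124 CPM with NAM/PN, so pools 1 and 2 were lower and pools 3 and 4 were higher. The means were 81.6 ± 20.9 and 82.5 ± 29.1 CPM (SD, n = 4), and the log2 fold change of 0.02 (SE 0.25) was negative in 7 of the 17 alternative settings. Its partner Jam2 measured 50.3 ± 24.5 and 54.2 ± 11.4 CPM and did not pass edgeR's test (adjusted p = 0.981).

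**Figure D3:**
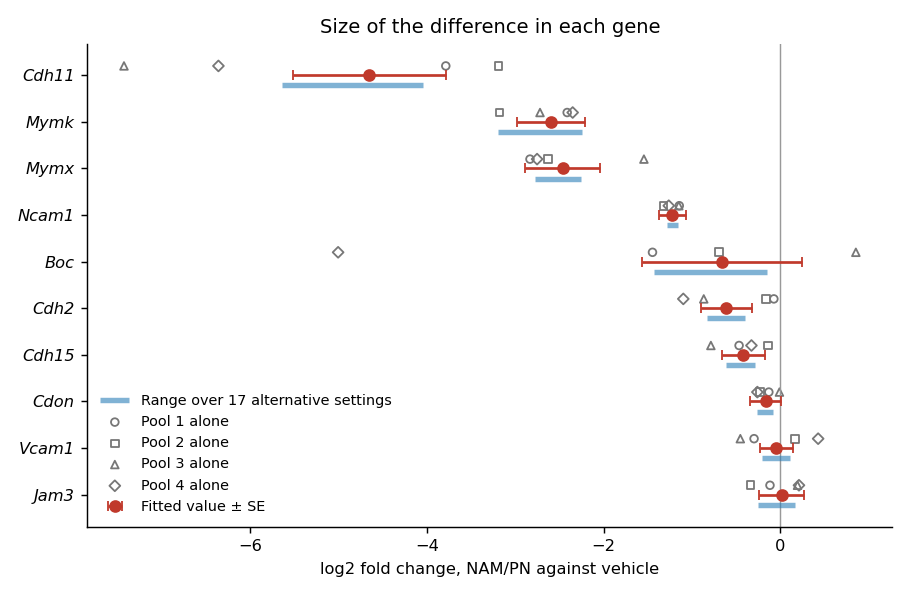
log2 fold change of NAM/PN against vehicle (x axis) for the 10 genes, with the fitted value ± SE (red), the difference within each of the 4 pools (open symbols) and the range over 17 alternative settings (blue bars). Values run from -4.65 for Cdh11 to 0.02 for Jam3, and the pools lie furthest apart from each other for Boc and Cdh11.

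Over the 10 genes, 9 had a negative log2 fold change, as did 6056 of all 12060 tested genes. The median was -0.64, against -0.002 for all tested genes. In 7 of the 10 genes all 4 pools were lower with NAM/PN, which was not counted over all tested genes. Mymk, Mymx, Cdh11 and Ncam1 had an adjusted p below 0.05 in edgeR's quasi-likelihood test in the lower direction, as did 0.995% of all tested genes, and 0.282% passed in the higher direction. The same 4 genes had libraries that did not overlap and were lower with NAM/PN, which held for 4.42% of all tested genes (2.79% in the higher direction). Since the genes were chosen from this comparison, nothing is read from these counts or from the calls in other settings that follow. All 4 also passed in edgeR with the pool as a block, whereas Cdh11 did not pass in voom with quality weights and the pools entered as an estimated correlation. In edgeR without a block, Mymk and Mymx did not pass without pool 2, Mymx did not pass without pool 4, and Cdh11 did not pass without pool 1 or without pool 3.

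The centred log2 profiles of the genes over the 8 libraries were compared by their root-mean-square difference, as a description. The closest pairs among the 10 genes were Cdon and Jam3 (0.248), Cdh15 and Cdon (0.279), and Cdh15 and Jam3 (0.309), all genes with little difference between conditions. Among 8735 other genes with a mean log2 CPM of at least 3, the profiles nearest to Mymk were Acta2 (0.230), which encodes smooth muscle α-actin and is also made by early myotubes, Tmem38a (0.359), which encodes a channel of the sarcoplasmic reticulum, and Myh3 (0.420), the embryonic myosin heavy chain. Their log2 fold changes were -2.38, -2.42 and -2.33, and since the profiles span both conditions, a fold change like that of Mymk is part of what selected them.

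The profiles nearest to Mymx, chosen in the same way, were Myl1 (0.245), a fast myosin light chain, Klhl31 (0.271), a muscle-enriched Kelch protein, and Myog (0.335), with log2 fold changes of -2.60, -2.08 and -2.22. Among the same 8735 genes, the nearest to Cdh11 was Mybpc1, a slow muscle myosin binding protein, at a difference of 1.31. The embryonic myosin light chain Myl4 (1.47) and the matrix proteoglycan Bgn (1.59) followed. Cdh11 itself lay below the limit of a mean log2 CPM of 3, so genes at its level were not compared. Its profile also depends on the prior count where it was at 0, so these distances do not show that no gene has a profile like it. Acta2 was also the mural marker with the highest sum, and ranged from 244 to 534 CPM with vehicle and from 46.9 to 122 CPM with NAM/PN. The 8 mural markers summed to 285 to 611 CPM with vehicle and 95.9 to 156 CPM with NAM/PN, while Myh11, a defining gene of smooth muscle, was at 0 in every library. Without Acta2 the other 7 markers summed to 40.5, 93.4, 64.5 and 76.5 CPM with vehicle, against 48.3, 53.8, 49.0 and 33.4 CPM with NAM/PN, and the groups overlapped. The part of mural cells in the fusogen values was not tested.

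Other genes of fusion and adhesion were followed in 6 lists of 107 genes, of which 78 were tested and 17 were at 0 in all libraries. In edgeR's quasi-likelihood test 3 fell and 1 rose, against 0.995% and 0.282% of all tested genes. The lists, too, were chosen with earlier results of these data known, so the counts are a description. The median log2 fold change of the 78 genes was -0.13, with 49 negative and 29 positive values. The lists hold none of the 10 genes.

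Among the 8 tested of 10 myogenic regulators, 2 fell, 0 rose and the median log2 fold change was -0.68, with all 8 negative. Myog, the transcription factor that starts terminal differentiation, fell from 929 ± 390 to 199 ± 74.3 CPM (SD, n = 4), by 2.22 on the log2 scale (SE 0.29, adjusted p = 0.000232 by edgeR). It was lower in all 4 pools, as Mymk and Mymx were. Mef2c, a partner of the MYOD family at muscle genes, fell from 40.0 ± 17.4 to 9.23 ± 4.24 CPM (adjusted p = 0.0125 by edgeR), but it did not pass without the vehicle library of pool 2 or 3 or the NAM/PN library of pool 1, and its adjusted p ran up to 0.131 over 17 alternative settings. Myod1, which specifies myoblasts, had a log2 fold change of -0.19 (adjusted p = 0.824) and Pax7, the stem cell factor, -0.18 (adjusted p = 0.923), so neither passed.

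Among adhesion and signalling partners, 19 of 26 genes were tested, 1 fell and 1 rose, around a median of -0.12. Gas1, which encodes a membrane-anchored coreceptor that works with CDON and BOC, measured 95.2, 102, 100.4 and 93.4 CPM with vehicle and 41.5, 46.4, 41.7 and 38.9 CPM with NAM/PN. The groups were far apart relative to their spread, and the fall was 1.21 on the log2 scale (SE 0.20, adjusted p = 0.00269 by edgeR). Without pool 2 its adjusted p was 0.0523. Neo1, which encodes the receptor neogenin that also acts with CDON, had a log2 fold change of 0.03 (adjusted p = 0.994 by edgeR).

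Itga3, the integrin α3 subunit that resides at cell contacts of fusing myoblasts, was the gene of these lists that rose. It measured 14.6, 21.1, 13.2 and 18.2 CPM with vehicle and 52.7, 71.5, 48.0 and 112 CPM with NAM/PN. Every NAM/PN library exceeded every vehicle library, and pool 4 was the highest with NAM/PN. The log2 fold change was 2.09 (SE 0.31, adjusted p = 0.000956 by edgeR), and Itga3, like Myog, passed in all 17 alternative settings. The integrin genes of the list with the most counts, Itgb1 and Itga7, had log2 fold changes of -0.04 and -0.12 and did not pass (adjusted p = 0.986 and 0.936 by edgeR).

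The downstream machinery did not pass the test in any gene, which does not show that its levels were equal. Of 23 actin regulators, all 23 were tested, 0 passed edgeR's test and 0 had an unadjusted p below 0.05, with log2 fold changes of 0.01 for both Cdc42 and Arpc2, which had the most counts of them. Of 18 genes of phosphatidylserine exposure and membrane repair, 14 were tested, 0 passed, and 1 had an unadjusted p below 0.05. Their log2 fold changes ran from -2.65 to 0.28 with a median of -0.25, and 12 were negative and 2 positive. Adgrb1 and Adgrb3, which encode phosphatidylserine receptors of the BAI family, were at 0 in every library, whereas Myof, a ferlin of myoblast membranes, had a log2 fold change of -0.02 and Anxa1 of -0.15.

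Catenins link cadherins to actin, and nectins are a further class of contact proteins. Of 15 such genes 11 were tested, 0 passed edgeR's test and 1 had an unadjusted p below 0.05. Ctnnb1, or β-catenin, had a log2 fold change of 0.22 (adjusted p = 0.812) and Ctnnd1, or p120-catenin, of -0.18 (adjusted p = 0.903). Of the 15 other classical cadherins only Cdh4, Cdh6 and Cdh24 were tested, 0 passed, and 7 were at 0 in every library. The log2 fold changes of these 3 genes were positive, but that of Cdh24, which had at most 42 counts in a library, was -0.64 with a replicate block.

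**Figure D4:**
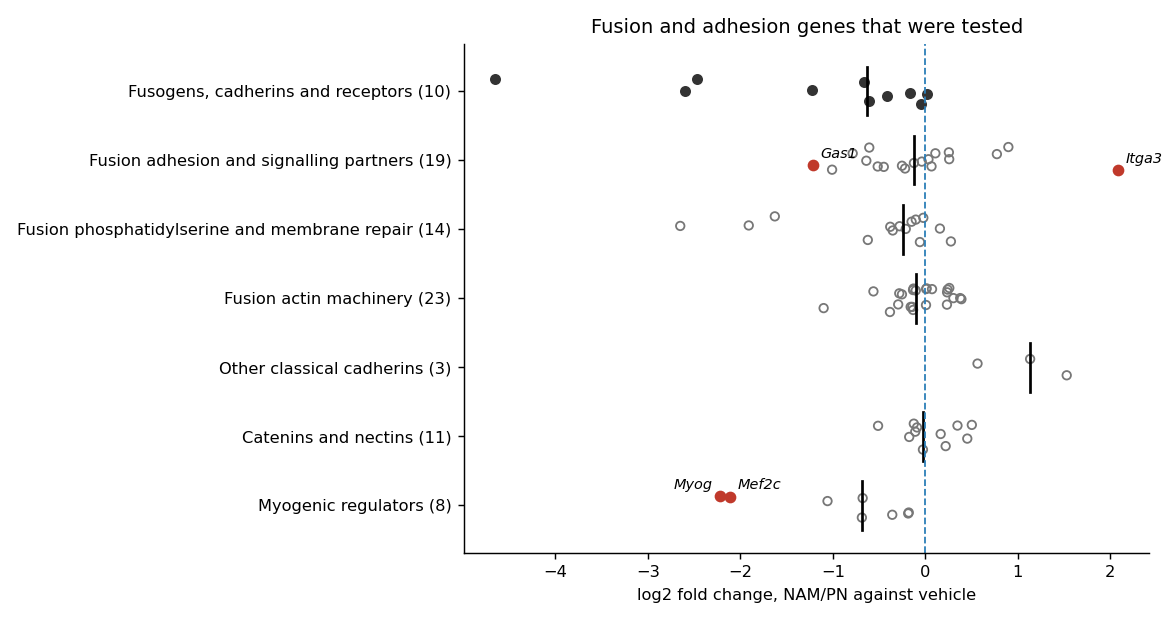
log2 fold change of NAM/PN against vehicle (x axis) for each tested gene, in rows for the 10 genes and the 6 lists, with the number tested in brackets, a black tick at each median and a dashed line at the median of all tested genes. Red points passed edgeR's test (Myog, Mef2c, Gas1 and Itga3), and the 10 genes are drawn in black whether or not they passed, since they were chosen from this comparison.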

How the data were processed

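RNA of 8 cultures was made into 3′ libraries (QuantSeq) and, per the paper's methods, aligned to GRCm38 with RNASTAR. The authors deposited raw counts per gene, made with HTSeq 2.16.2 per the labels, without normalization or filter. The strand setting is not given in the sources used here.

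Groups and pools were taken from the labels. Genes were filtered with filterByExpr (minimum count 10, total 15), scaled by TMM and compared with edgeR 4.0.16 (glmQLFit and glmQLFTest, Benjamini-Hochberg threshold 0.05, no block) in R 4.3.3, with limma 3.58.1 and DESeq2 1.42.0 for alternatives. Profiles used a prior count of 2. The procedure was tested on simulated data. Figures were drawn with matplotlib 3.10.9. Symbols and positions came from GENCODE M21, which named 55141 of the 55487 identifiers.

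The 10 genes and all lists were chosen with earlier results of these data known. Named list genes were those passing the test and the 2 most abundant per list, with Pax7 and Myod1 for context, the 3 nearest profiles of Mymk, Mymx and Cdh11, and the marker with the highest sum per list. A further marker list is not reported here. Jam2, Itga4, Neo1, Cdh24, Col3a1, Gsn, Adgrb1, Adgrb3, Alcam, Mef2a and the markers at 0 were named after their values were seen.

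The same pool number names the same mice in both conditions. Deviations of same-numbered libraries from their group means correlated by -0.01, 0.01, -0.03 and 0.03 across genes, which are not independent. Alternatives were the replicate block, DESeq2, relative log expression factors, no filter, voom with quality weights and duplicateCorrelation over pools (both changed together), a threshold of 0.10, unscaled library totals for mean CPM, and the removal of single libraries and of single pools.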

Additional observations from a re-analysis of the deposited data

Results flagged for a closer look

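Dixon's outlier test was applied to 64 groups of 4 libraries, and 3 passed its 95% critical value, where chance gives about 3.2. Mymk measured 31.5 CPM in the NAM/PN library of pool 4, against 9.90 to 11.3 CPM in the other NAM/PN libraries. Pax7 measured 97.3 CPM in the same library, against 196 to 199.9 CPM in the others. Itga7 measured 238 CPM in the NAM/PN library of pool 1, against 293 to 303 CPM in the others. The library of pool 4 had the fewest genes detected (12483) and the most counts, and its part in these values was not tested.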

How the results depend on the processing

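The log2 fold changes of Mymk, Mymx, Cdh2, Cdh11, Cdh15, Cdon, Boc and Ncam1 were negative in all 17 alternatives, and those of Jam3 and Vcam1 changed sign. In the replicate block (the pairing of libraries by pool), 156 genes passed instead of 154, of which 130 passed in both, 4 list genes passed as before and 10 of the 10 genes were negative instead of 9, and the block changed no call of a named gene. The number of genes that passed was 289 with DESeq2, 366 without the filter, 232 with voom, quality weights and duplicateCorrelation over pools and 244 at a threshold of 0.10. Without 1 library it lay between 80 (without vehicle of pool 2) and 177 (without NAM/PN of pool 4), with 87 without vehicle of pool 4 and 92 without NAM/PN of pool 1. Without pools 1, 2, 3 and 4 it was 65, 42, 112 and 94. List genes that passed numbered 6 without the filter, with Alcam and Mef2a added, and 5 with that voom fit, with Alcam added. They numbered 3 to 5 without 1 library and 2 to 4 without 1 pool, with 2 without pool 2, where Gas1 and Mef2c did not pass. Mef2c also did not pass in 3 settings without 1 library and in 2 further ones without 1 pool. Mymk and Mymx no longer passed without pool 2, Mymx without pool 4, and Cdh11 without pool 1, without pool 3 or with that voom fit. The cause was not tested, and nothing is read from the calls of these genes, which were chosen from this comparison. Cdh11 and Boc had libraries at 0, where 3 counts, the floor, equalled 0.280 to 0.457 CPM.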
